A study of Mus musculus with 4 samples.

Results

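The genes described are *Foxp3*, *Ikzf2*, *Ikzf4*, *Lrrc32*, *Gpr83* and *Nrp1*, 6 genes that mark regulatory T cells (Tregs). They were chosen by name, and are 6 of the 25239 gene symbols counted in each library. RNA-Seq was performed in 4 libraries of CD4+ T cells taken from tumor-bearing lungs of C57BL/6 mice, male and young adult by the methods, with 2 biological replicates labelled WT and 2 labelled CD4/ALK4-KO. The CD4/ALK4-KO mice were CD4CreERT2+/-/Acvr1bfl/fl, in which tamoxifen given on 5 days activates a Cre recombinase driven by the mouse *Cd4* promoter. This is meant to delete *Acvr1b*, the gene of the activin type I receptor ALK4, in cells that express *Cd4*, which include Tregs. The controls were WT littermates, and the sources used here do not say whether they received tamoxifen, nor how many mice gave each library. All mice received by vein LLC-OVA, Lewis lung carcinoma cells engineered to express ovalbumin. Lungs were taken after 18 to 22 days by the sample labels, whereas the methods give an earlier range of days for the CD4/ALK4-KO model. CD4+ T cells were isolated with commercial kits from the leukocyte fraction of digested lung, not by sorting on FOXP3, so the libraries hold Tregs among other cells.

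FOXP3 is the transcription factor that defines Tregs and maintains their suppressive program. Helios (*Ikzf2*) and Eos (*Ikzf4*) are zinc finger factors of the Ikaros family that act with FOXP3 and stabilize Treg identity. GARP (*Lrrc32*) holds latent TGF-β on the surface of activated Tregs, GPR83 is a G protein-coupled receptor enriched in Tregs, and neuropilin-1 (*Nrp1*) is a semaphorin and VEGF co-receptor found on thymus-derived Tregs. None of these transcripts is exclusive to Tregs. Neuropilin-1 is also made by endothelial cells, plasmacytoid dendritic cells, macrophages and fibroblasts, and GARP by platelets and endothelial cells.

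In the mouse genome build GRCm38 (GENCODE M21), *Foxp3* (ENSMUSG00000039521) lies on chromosome X from 7573644 to 7595245, on the plus strand. *Ikzf2* (ENSMUSG00000025997) spans chromosome 1 from 69531214 to 69687245 and *Ikzf4* (ENSMUSG00000002578) chromosome 10 from 128630843 to 128645991, both on the minus strand. The genes of the surface proteins are on the plus strand, *Lrrc32* (ENSMUSG00000090958) on chromosome 7 from 98489283 to 98502181, *Gpr83* (ENSMUSG00000031932) on chromosome 9 from 14860210 to 14870789 and *Nrp1* (ENSMUSG00000025810) on chromosome 8 from 128358604 to 128503363. The sequences 250 bases upstream of an annotated start are shown for *Foxp3*, *Gpr83* and *Nrp1*, the 3 of the 6 genes with an entry among the promoters used. They are from RefSeq, build GRCm38.p6, plus strand, read 5′ to 3′ and ending at the base before the start. *Foxp3* has 2 starts there, and the stretches before them are chrX:7579426-7579675 and chrX:7580233-7580482. The *Gpr83* stretch is chr9:14859960-14860209 and that of *Nrp1* is chr8:128358823-128359072. The *Foxp3* and *Nrp1* stretches lie inside the GENCODE intervals given above, and that of *Gpr83* ends just before its interval. *Ikzf2*, *Ikzf4* and *Lrrc32* had no entry, so no sequence of theirs was searched. Capitals mark the motif matches found.
Foxp3 start 1: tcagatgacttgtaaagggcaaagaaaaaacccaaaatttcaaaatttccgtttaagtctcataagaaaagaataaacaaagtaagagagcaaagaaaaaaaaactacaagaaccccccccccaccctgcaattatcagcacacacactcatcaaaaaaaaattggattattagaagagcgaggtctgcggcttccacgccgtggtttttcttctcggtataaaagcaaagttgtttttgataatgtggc
Foxp3 start 2: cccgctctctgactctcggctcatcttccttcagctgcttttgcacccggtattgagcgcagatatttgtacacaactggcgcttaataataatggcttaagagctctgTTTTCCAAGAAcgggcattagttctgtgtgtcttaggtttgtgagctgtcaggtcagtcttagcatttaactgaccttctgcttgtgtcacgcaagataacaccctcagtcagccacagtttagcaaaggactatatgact
Gpr83: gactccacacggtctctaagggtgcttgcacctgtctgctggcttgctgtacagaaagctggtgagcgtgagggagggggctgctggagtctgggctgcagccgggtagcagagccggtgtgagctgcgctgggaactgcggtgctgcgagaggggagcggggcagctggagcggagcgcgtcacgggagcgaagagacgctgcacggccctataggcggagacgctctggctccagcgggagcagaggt
Nrp1: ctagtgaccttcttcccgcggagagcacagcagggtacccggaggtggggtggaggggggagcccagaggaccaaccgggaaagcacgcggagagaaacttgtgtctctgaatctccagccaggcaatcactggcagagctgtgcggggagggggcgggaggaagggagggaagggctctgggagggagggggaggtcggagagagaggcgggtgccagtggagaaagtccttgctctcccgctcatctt
Both strands were searched for the forkhead core GTAAACA, the RUNX core TGTGGT, the STAT palindrome TTCNNNGAA and the NFAT core GGAAAA, sites of factor families that act on *Foxp3* or bind with its product. The second *Foxp3* stretch held a STAT palindrome from 139 to 131 bases before the start, overlapping an NFAT core on the opposite strand from 141 to 136 bases before it. The other 3 stretches held no match. Among 32851 RefSeq promoters of the same length, 3.17% held the forkhead core, 14% the RUNX core, 7.02% the STAT palindrome and 20.4% the NFAT core, so such matches are frequent.

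The deposited counts summed to between 11823908 and 13943237 per library. The targeted gene *Acvr1b* had 426 and 342 counts in WT and 322 and 445 in CD4/ALK4-KO (log2 fold change 0.16, SE 0.24, adjusted p = 0.657) and so did not separate the labelled genotypes; directions are between the libraries as labelled. T cell RNA differed between the genotypes: the 10 T cell markers, the CD3 chains among them, summed to 402 to 447 CPM (the count of a gene scaled to library size) in WT and 2154 to 2270 CPM in CD4/ALK4-KO, and all 10 were higher. *Xist*, the RNA of the inactive X chromosome of female cells, had 4039 and 5208 counts in WT and 1531 and 1265 in CD4/ALK4-KO, and the Y-linked *Ddx3y*, *Eif2s3y*, *Kdm5d* and *Uty* had 267 to 3719 counts in the 4 libraries. These sex-linked genes were looked at after the values were seen, and since *Foxp3* is X-linked their part in its values was not tested. In bulk RNA, fewer cells of a type and less RNA per cell cannot be told apart. The members were therefore read on 2 scales, as CPM with library sizes adjusted by TMM, which compares each gene with the whole library, and per 1000 counts of the CD3 chains *Cd3e*, *Cd3d* and *Cd3g* together, which compares it with T cell RNA. These 3 genes summed to 2169 and 2023 counts in WT and to 8870 and 7680 in CD4/ALK4-KO, which is 158 and 150 CPM against 745 and 622 CPM.

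By TMM, all 6 Treg genes were higher in CD4/ALK4-KO than in WT, with fold changes from 1.53 for *Nrp1* to 27.6 for *Gpr83* and a median log2 fold change of 2.35, where the median of all 13919 genes tested was -0.0082. Of all genes tested, 17.4% were called higher and 15.4% lower (adjusted p below 0.05). The 10 T cell markers had a median of 2.39, close to that of the Treg genes. Relative to the CD3 chains, 4 of the 6 genes (*Foxp3*, *Ikzf2*, *Ikzf4* and *Lrrc32*) did not pass the test and overlapped between the genotypes, *Gpr83* was higher and *Nrp1* was lower. The share of all genes tested that overlap between the genotypes was not counted on either scale. On this scale 0.352% of all genes tested were called higher and 91% lower, and the median log2 fold change was 0.21 for the members against -2.15 for all genes. All 6 genes passed the filter on low counts, which asked for 0.774 CPM in 2 libraries. *Gpr83*, with no WT library at that level, and *Ikzf4*, with 1, passed only through their CD4/ALK4-KO libraries, so that on both scales a high level there was a condition for their being tested, and the count of members called is no support in itself. The plot of CPM by library shows the 6 genes on the TMM scale.

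**Figure D1:**
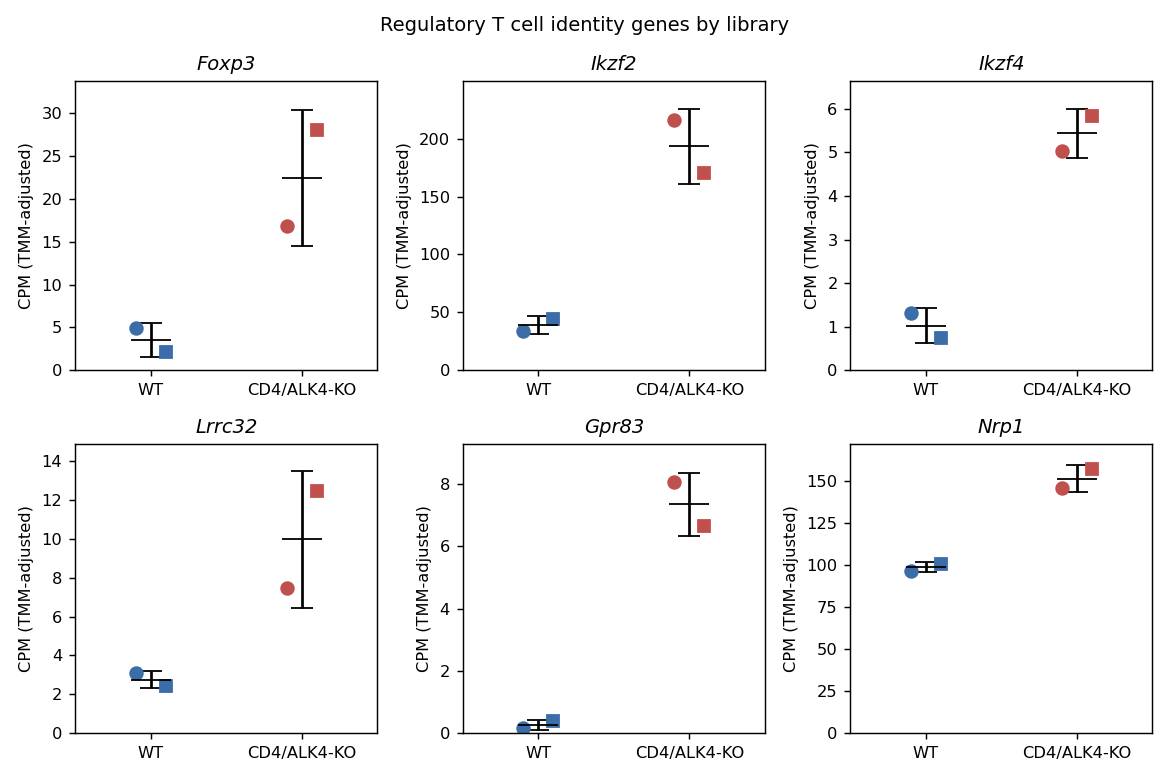
CPM (TMM-adjusted) of the 6 Treg genes in each library, on axes of their own from 0, with circles for replicate 1 and squares for replicate 2, the mean as a horizontal line and the SD as a bar (n = 2 per genotype). The genotypes do not overlap for any of the 6 genes, and *Gpr83* is at most 0.370 CPM in WT and at least 6.64 CPM in CD4/ALK4-KO. For 2 against 2 libraries without any difference, non-overlap has a probability of 0.333, and its share over all genes was not counted.

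*Foxp3*, the lineage factor, had 67 and 28 counts in WT and 201 and 347 in CD4/ALK4-KO, or 4.89 and 2.07 CPM against 16.9 and 28.1 CPM. Both CD4/ALK4-KO libraries lay above both WT libraries, although replicates of 1 genotype also differed. *Foxp3* was 6.45-fold higher by TMM (log2 fold change 2.69, SE 0.37, 95% confidence interval 1.92 to 3.46, adjusted p = 1.27e-05 in the edgeR quasi-likelihood test). Per 1000 counts of the CD3 chains the order of the libraries was different, with 30.9 and 13.8 in WT and 22.7 and 45.2 in CD4/ALK4-KO. The genotypes overlapped on this scale, where the log2 fold change was 0.59 (SE 0.42, 95% confidence interval -0.25 to 1.44, adjusted p = 0.173). The interval included differences in either direction, and it does not show that the levels were alike. Without CD4/ALK4-KO replicate 1, which had the lower *Foxp3* count of that genotype, the log2 fold change was 1.01 with an adjusted p of 0.0107, whereas without CD4/ALK4-KO replicate 2 it was 0.013. Each of these fits leaves 1 CD4/ALK4-KO library, which is assumed to vary as the WT libraries do.

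The *Foxp3* count holds a limit of its own. Its exons share 853 bp with *Flicr*, a long non-coding RNA on the same strand, and 590, 373 and 266 bp with *Ccdc22*, *Gm36995* and *Ppp1r3f* on the opposite strand. The kit used does not mark strand, and 18.9% of the 75-base windows of *Foxp3* transcripts (929 of 4911) also occur in transcripts of these genes. *Ccdc22*, which encodes a subunit of an endosomal sorting complex, had 189, 151, 193 and 224 counts in WT replicates 1 and 2 and CD4/ALK4-KO replicates 1 and 2, and did not pass the test (log2 fold change 0.46, adjusted p = 0.212). *Flicr* had 1 and 3 counts in WT and 12 and 14 in CD4/ALK4-KO (adjusted p = 0.0214). *Ppp1r3f* had 24 and 15 counts in WT and 51 and 49 in CD4/ALK4-KO and was higher by TMM (log2 fold change 1.52, adjusted p = 0.0225). These neighbours were chosen after their values were seen. For the other members at most 0.602% of the windows were shared with another gene, and no window of *Ikzf2* occurred in *Ikzf4*.

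*Ikzf2*, which encodes Helios, had 462 and 599 counts in WT and 2576 and 2105 in CD4/ALK4-KO. In CPM these were 33.7 and 44.3 against 216 and 170, so the genotypes were well apart. The TMM fold change was 4.96 (log2 2.31, SE 0.23, 95% confidence interval 1.83 to 2.79, adjusted p = 1.46e-07). When set against the CD3 chains, *Ikzf2* had 213 and 296 in WT and 290 and 274 in CD4/ALK4-KO per 1000 counts, so that both CD4/ALK4-KO values lay between the WT values. The log2 fold change on this scale was 0.15 (SE 0.25, 95% confidence interval -0.35 to 0.64, adjusted p = 0.559), the smallest of the 6 members, and its direction changed with *Cd3e* alone (-0.65, adjusted p = 0.0415) or *Cd4* (-0.32, adjusted p = 0.241) as the scale.

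*Ikzf4*, which encodes Eos, was near the lower end of detection, with 18 and 10 counts in WT and 60 and 72 in CD4/ALK4-KO. These correspond to 1.31 and 0.739 CPM against 5.04 and 5.83 CPM, without overlap, and to a 5.25-fold difference by TMM (log2 2.39, SE 0.50, 95% confidence interval 1.35 to 3.44, adjusted p = 9e-04). As *Ikzf4* was tested through its CD4/ALK4-KO libraries, the fit with no filter on low counts is given beside it. There the log2 fold change was 2.39 and the adjusted p was 4.87e-05. The smaller adjusted p is no added support, as this fit also lowered that of *Foxp3*, which passed the filter in both genotypes. Per 1000 counts of the CD3 chains the values of 8.30 and 4.94 in WT overlapped those of 6.76 and 9.38 in CD4/ALK4-KO. With so few counts the interval on this scale was the widest of the 4 genes that did not pass, from -0.89 to 1.45 around a log2 fold change of 0.28 (SE 0.58, adjusted p = 0.645). Its sign was negative with *Cd3e* alone (-0.50) and with *Cd4* (-0.20) as the scale, and in neither case did it pass the test.

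The ratios between the 3 transcription factors, which need no scale, varied as much within as between the genotypes. *Ikzf2* had 6.90 and 21.4 counts per count of *Foxp3* in WT and 12.8 and 6.07 in CD4/ALK4-KO. *Ikzf4* had 0.269 and 0.357 counts per count of *Foxp3* in WT and 0.299 and 0.207 in CD4/ALK4-KO. Both ratios overlapped between the genotypes, as did *Foxp3* per 1000 counts of *Cd4*, with 88.3 and 43.1 in WT and 55.0 and 86.0 in CD4/ALK4-KO.

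Among the surface proteins, *Lrrc32*, the gene of GARP, had 42 and 33 counts in WT and 89 and 154 in CD4/ALK4-KO. In CPM the values were 3.06 and 2.44 against 7.48 and 12.5, without overlap, a 3.62-fold difference (log2 1.85, SE 0.38, 95% confidence interval 1.07 to 2.64, adjusted p = 0.000704). Per 1000 counts of the CD3 chains *Lrrc32* had 19.4 and 16.3 in WT, between the 10.03 and 20.1 of the CD4/ALK4-KO libraries. It was the only one of the 4 genes that did not pass on this scale with a negative log2 fold change (-0.25, SE 0.45, 95% confidence interval -1.16 to 0.66, adjusted p = 0.596), which passed with *Cd3e* alone as the scale (-1.08, adjusted p = 0.0239) and was positive without CD4/ALK4-KO replicate 1 (0.17). Markers of platelets, which also make GARP, summed to 295 to 381 CPM in WT and 173 to 176 CPM in CD4/ALK4-KO, and 2 of the 5 tested were lower. Those of endothelial cells summed to 73.6 to 86.0 CPM in WT and 129 to 147 CPM in CD4/ALK4-KO, but without *Pecam1*, which leukocytes also make, the other 8 summed to 43.3 to 51.0 CPM in WT and 22.9 to 38.6 CPM in CD4/ALK4-KO. Their part in the *Lrrc32* counts was not tested.

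*Gpr83* had the largest difference of the 6 members on both scales. It had 2 and 5 counts in WT and 96 and 82 in CD4/ALK4-KO, or 0.146 and 0.370 CPM against 8.07 and 6.64 CPM. The fitted log2 fold change was 4.79 by TMM (SE 0.58, 95% confidence interval 3.58 to 5.99, adjusted p = 1.94e-06). Since the WT counts were this low, the ratio of the summed counts (7 in WT, 178 in CD4/ALK4-KO) was also taken, and on the TMM scale it was 28.6, with an exact 95% interval of 13.6 to 72.1 that covers counting error only. Relative to the CD3 chains *Gpr83* had 0.922 and 2.47 in WT and 10.8 and 10.7 in CD4/ALK4-KO per 1000 counts, without overlap. Here the log2 fold change was 2.66 (SE 0.70, 95% confidence interval 1.24 to 4.08, adjusted p = 0.000598) and the ratio of summed counts was 6.44, with an interval of 3.06 to 16.3.

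Because *Gpr83* entered the test on both scales through its CD4/ALK4-KO libraries, it was also read in the fit with no filter on low counts. There its log2 fold change was 4.78 by TMM (adjusted p = 7.04e-14) and 2.66 relative to the CD3 chains (adjusted p = 0.000337). By TMM that fit also lowered the adjusted p of *Foxp3*, which passed the filter in both genotypes, to 7.43e-15, and left that of *Nrp1* at 0.0263. The smaller adjusted p of *Gpr83* is therefore no added support. In the alternatives on the CD3 scale its log2 fold change ran from 1.88 (*Cd3e* alone) to 3.52 (without WT replicate 2). By TMM it ran from 4.27 to 5.55, and it was not tested where at least 10 counts were required in every library. Relative to *Foxp3*, *Gpr83* had 0.0299 and 0.179 counts per count in WT and 0.478 and 0.236 in CD4/ALK4-KO, again without overlap, although CD4/ALK4-KO replicate 2 was close to WT replicate 2. *Lrrc32*, in contrast, had 0.627 and 1.18 counts per count of *Foxp3* in WT and 0.443 and 0.444 in CD4/ALK4-KO.

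For *Nrp1*, the gene of neuropilin-1, the 2 scales gave opposite directions. It had 1326 and 1364 counts in WT and 1735 and 1939 in CD4/ALK4-KO. In CPM it had 96.8 and 101 in WT and 146 and 157 in CD4/ALK4-KO, a 1.53-fold difference (log2 0.62, SE 0.21, 95% confidence interval 0.19 to 1.05, adjusted p = 0.0261). This call was lost without WT replicate 1 (0.58, adjusted p = 0.298), without WT replicate 2 (0.64, adjusted p = 0.211) and with the replicate number as a block (0.62, adjusted p = 0.125). Per 1000 counts of the CD3 chains *Nrp1* had 611 and 674 in WT and 196 and 252 in CD4/ALK4-KO. The log2 fold change on this scale was -1.52 (SE 0.23, 95% confidence interval -1.99 to -1.05, adjusted p = 1.05e-07), negative as for most genes, and it passed the test in every alternative run, between -2.34 and -1.35.

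Other cells that make neuropilin-1 were present in all 4 libraries. Fibroblast markers such as *Col3a1* and *Dcn* summed to 6712 to 7307 CPM in WT and 3965 to 4773 CPM in CD4/ALK4-KO, and 4 of 7 were lower by TMM. Macrophage markers such as *Mrc1* and *C1qb* summed to 1370 to 1879 CPM in WT and 1251 to 1500 CPM in CD4/ALK4-KO, where 1 of 8 was higher. Of the 9 endothelial markers, 1 was higher (*Pecam1*) and 2 were lower. The 5 markers of plasmacytoid dendritic cells summed to 14.01 to 17.9 CPM in WT and 41.1 to 50.6 CPM in CD4/ALK4-KO, and 2 were higher, among them *Siglech*. None of the markers of these cells was at 0 in all libraries, and their part in the *Nrp1* counts was not tested. Relative to *Ikzf2*, *Nrp1* had 2.87 and 2.28 counts per count in WT and 0.674 and 0.921 in CD4/ALK4-KO, without overlap.

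**Figure D2:**
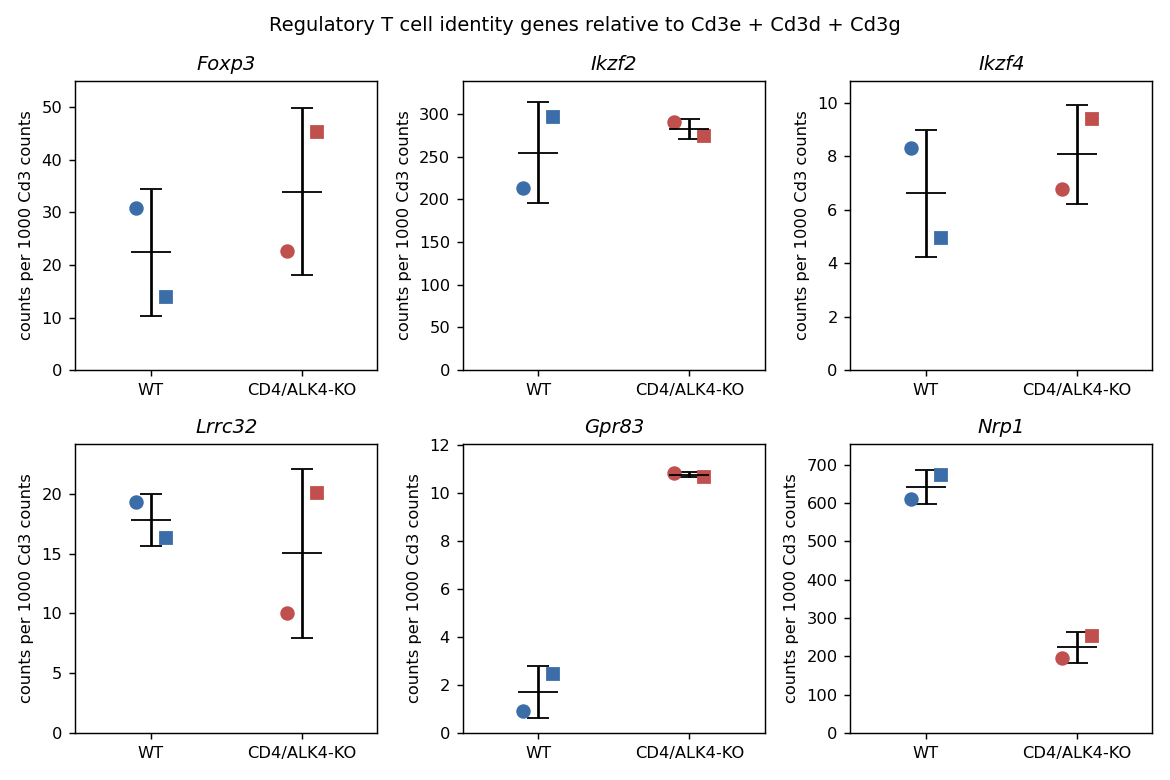
Counts of the 6 Treg genes per 1000 counts of *Cd3e*, *Cd3d* and *Cd3g* in each library, on axes of their own from 0, with circles for replicate 1, squares for replicate 2, the mean as a line and the SD as a bar (n = 2 per genotype). *Gpr83* is higher in both CD4/ALK4-KO libraries and *Nrp1* lower, whereas the other 4 genes overlap between the genotypes.

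As a value per library that needs no model, the counts per 1000 counts of the CD3 chains were 22.4 ± 12.1 in WT and 33.9 ± 15.9 in CD4/ALK4-KO for *Foxp3* (SD, n = 2 libraries per genotype, as for the values that follow). They were 255 ± 58.8 and 282 ± 11.5 for *Ikzf2*, and 6.62 ± 2.37 and 8.07 ± 1.85 for *Ikzf4*. For the surface proteins the WT and CD4/ALK4-KO values were 17.8 ± 2.16 and 15.0 ± 7.08 for *Lrrc32*, 1.70 ± 1.10 and 10.8 ± 0.103 for *Gpr83*, and 643 ± 44.5 and 224 ± 40.2 for *Nrp1*. A two-sided exact permutation test over 2 against 2 libraries cannot give a p below 0.333, which was reached for *Gpr83* and *Nrp1*. The fold changes of the 6 genes on both scales are compared in the plot of log2 fold changes.

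**Figure D3:**
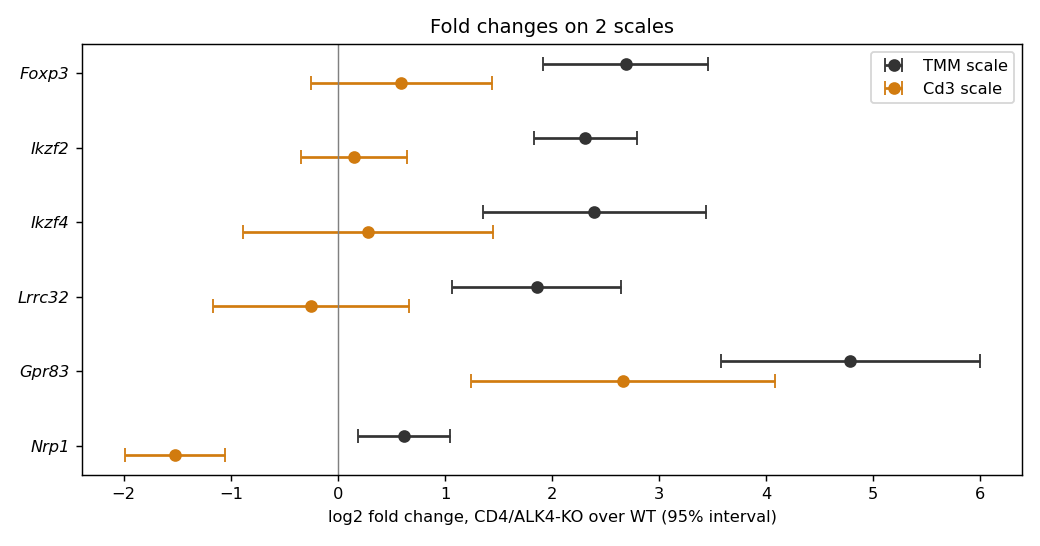
Log2 fold change (CD4/ALK4-KO over WT) of each Treg gene by TMM and relative to the CD3 chains, with 95% confidence intervals of the edgeR fit (n = 2 libraries per genotype). All points are filled, whatever their adjusted p. By TMM all 6 are above 0, and relative to the CD3 chains *Gpr83* is above 0, *Nrp1* below, and the intervals of the other 4 include 0.

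The 3 CD3 chains did not move alike, so the scale itself carries an uncertainty. *Cd3e* had 151 and 116 counts in WT and 859 and 948 in CD4/ALK4-KO, with 2.92 as its log2 fold change by TMM. *Cd3d*, with 862 and 880 against 3024 and 3059 counts, had 1.97, and *Cd3g*, with 1156 and 1027 against 4987 and 3673 counts, had 2.16. *Cd3e* had the fewest counts of the 3 and contributed least to the sum. *Cd4*, the marker of isolation, had 759 and 649 counts in WT and 3654 and 4033 in CD4/ALK4-KO (2.62). *Cd8a*, the coreceptor of the other main T cell lineage, had 365 and 321 counts in WT and 1996 and 1285 in CD4/ALK4-KO (2.43), so T cell RNA that the isolation was meant to leave out was higher as well. *Gpr83* and *Nrp1* passed with each of the CD3 chains alone and with *Cd4* as the scale, as the plot of alternatives shows.

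**Figure D4:**
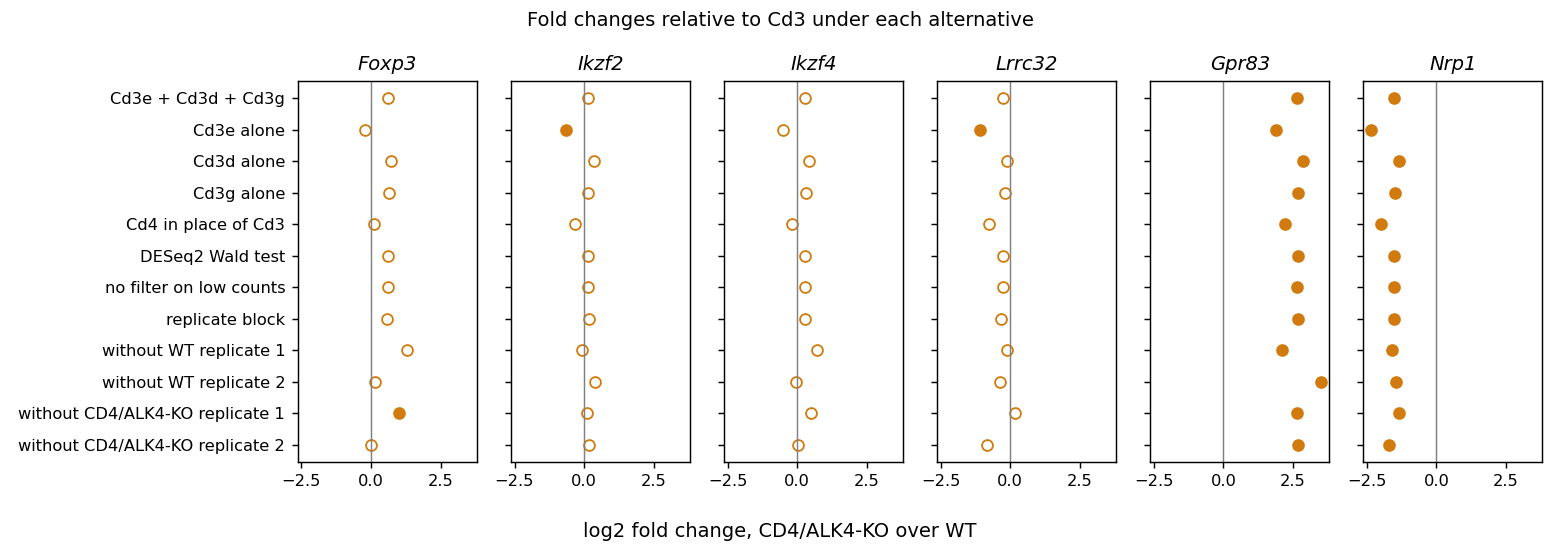
Log2 fold change (CD4/ALK4-KO over WT, common x axis) of each Treg gene relative to the CD3 chains together (top row), to single genes, with another test, filter or block, and with each library left out, where filled points have an adjusted p under 0.05. *Gpr83* stays between 1.88 and 3.52 and *Nrp1* between -2.34 and -1.35, and the other 4 genes lie on both sides of 0 or close to it.

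Per length, as CPM per kilobase of exon, the order of the members in WT was *Nrp1* (10.1 ± 0.294), *Ikzf2* (3.36 ± 0.644), *Foxp3* (0.760 ± 0.436), *Lrrc32* (0.587 ± 0.0943), *Ikzf4* (0.171 ± 0.0677) and *Gpr83* (0.0506 ± 0.0310). *Foxp3* and *Lrrc32* overlapped between libraries, and the other neighbours did not. In CD4/ALK4-KO the order was *Ikzf2* (16.7 ± 2.80), *Nrp1* (15.5 ± 0.816), *Foxp3* (4.91 ± 1.73), *Lrrc32* (2.13 ± 0.754), *Gpr83* (1.44 ± 0.198) and *Ikzf4* (0.907 ± 0.0933). Here *Ikzf2* and *Nrp1* overlapped, and *Lrrc32* and *Gpr83* came as close as 1.59 against 1.58 in CD4/ALK4-KO replicate 1. All errors of these levels are SDs over 2 libraries. By mean CPM among the genes tested, *Nrp1* and *Ikzf2* were at the 87.1 and 86 percentiles, *Foxp3* at 33.5, *Lrrc32* at 22.3, *Gpr83* at 16.2 and *Ikzf4* at 14.6.

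The genes whose profile over the 4 libraries was most like that of *Foxp3*, out of 11630 genes averaging 50 counts or more, were *Izumo1r*, *Cracr2a*, *Pdcd1*, *Cxcr5* and *Cd5*, with Euclidean distances of centred log2 CPM of 0.241, 0.36, 0.412, 0.434 and 0.441. *Izumo1r*, the gene of folate receptor 4, had 184 and 89 counts in WT and 665 and 975 in CD4/ALK4-KO. Like *Foxp3* it was lower in replicate 2 than in replicate 1 of WT and higher in replicate 2 of CD4/ALK4-KO. For *Ikzf2* the near profiles included those of *Cd96* (0.0954), *Cd28* (0.135), *St8sia1* (0.163) and *Hsh2d* (0.167). *Cd96*, the gene of a receptor on T and NK cells, had 300 and 359 counts in WT and 1669 and 1369 in CD4/ALK4-KO. With 4 libraries in 2 groups these distances are descriptions only.

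Of 12 genes of partners and regulators of FOXP3, 9 were higher by TMM, none was lower, and the median log2 fold change was 1.89. *Satb1*, a chromatin organizer needed for Treg development, had 333 and 488 counts in WT and 3466 and 2388 in CD4/ALK4-KO (log2 fold change 3.004, adjusted p = 2.8e-08). *Gata3*, the T helper 2 factor that Tregs also use, had 39 and 31 counts against 136 and 195 (2.40, adjusted p = 1.85e-05). The 3 that did not pass were *Runx1* (0.15, adjusted p = 0.66), its partner *Cbfb* (0.29, adjusted p = 0.331) and *Foxo3* (0.19, adjusted p = 0.642), which are expressed in many cell types. On the CD3 scale, where 91% of all genes tested were lower, the median was -0.26, with *Satb1* higher (0.83, adjusted p = 0.00255) and 5 genes lower, but no gene was higher with *Cd3e* alone, *Cd4* or without WT replicate 1. As the scale, test, block or left-out library varied, 0 to 3 of the 12 were higher and 3 to 8 lower.

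The other 3 Ikaros family genes were higher by TMM, and 2 of them with the replicate block or without WT replicate 1, WT replicate 2 or CD4/ALK4-KO replicate 1. *Ikzf1*, which encodes Ikaros, had 497 and 628 counts in WT and 3007 and 3235 in CD4/ALK4-KO (log2 fold change 2.64). *Ikzf3*, the gene of Aiolos, had a log2 fold change of 2.89, and the widely expressed *Ikzf5* one of 0.77 (adjusted p = 0.0162). Against the CD3 chains *Ikzf5* was lower (-1.40), *Ikzf3* higher (0.76, adjusted p = 0.0162) and *Ikzf1* at the threshold (0.49, adjusted p = 0.0499), and neither of the last 2 was called with *Cd3e* alone, *Cd3g* alone or *Cd4* as the scale, without WT replicate 1 or without CD4/ALK4-KO replicate 2.

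Of the IL-2 axis, on which Tregs depend, *Il2ra* (CD25) had 113 and 101 counts in WT and 728 and 773 in CD4/ALK4-KO and was higher by TMM (log2 fold change 2.98, adjusted p = 2.5e-08). *Il2rb* (2.24) and *Il2rg* (1.87) were higher too. *Il2* itself had 14 and 3 counts in WT and 7 and 12 in CD4/ALK4-KO and did not pass (0.32, adjusted p = 0.791). *Il2ra* was also higher relative to the CD3 chains (0.84, adjusted p = 0.0167), but not with *Cd3e* alone, *Cd3g* alone or *Cd4* as the scale, nor without either WT library. *Foxp3* per 1000 counts of *Il2ra* was 593 and 277 in WT and 276 and 449 in CD4/ALK4-KO, overlapping between the genotypes.

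Among 11 surface receptors used to describe Tregs, 10 were higher by TMM and 1 was lower, with a median log2 fold change of 2.01. *Ccr4* (2.93), *Izumo1r* (2.75), *Tnfrsf4* (OX40, 2.40) and *Ccr8* (2.36), which guide, mark or costimulate Tregs, were among those that rose. *Il1rl1*, the gene of the IL-33 receptor ST2 that innate lymphoid cells, mast cells and tissue Tregs carry, had 3845 and 1876 counts in WT and 826 and 797 in CD4/ALK4-KO and fell by 1.65 on the log2 scale (adjusted p = 0.00012). Relative to the CD3 chains none of the 11 was higher and 3 were lower, *Il1rl1*, *Tnfrsf9* and *Klrg1*, with a median of -0.13, where 91% of all genes tested were lower. With *Cd3e* alone or *Cd4* as the scale 7 were lower and without CD4/ALK4-KO replicate 2 there were 5, and over all alternatives 0 to 2 were higher and 2 to 7 lower.

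Of 10 genes of suppressive mediators, 7 were higher by TMM, 1 was lower and the median was 1.19, but without WT replicate 1 only 4 were higher, and without CD4/ALK4-KO replicate 2 a further gene was lower (2 in all). *Ctla4* had 828 and 593 counts in WT and 2550 and 2911 in CD4/ALK4-KO and rose (2.11, adjusted p = 4.04e-07). Relative to the CD3 chains it did not pass (-0.018, adjusted p = 0.942). *Ebi3*, the gene of a subunit of IL-27 and IL-35, rose (1.48), as did *Gzmb* (1.65), *Fgl2* (1.26), *Nt5e* (CD73, 1.11) and *Entpd1* (0.73). *Il12a*, of which IL-35 also consists, had 2 and 10 counts in WT and 25 and 28 in CD4/ALK4-KO and was tested only through the latter. *Areg*, the tissue repair factor amphiregulin, had 298 and 365 counts in WT and 67 and 168 in CD4/ALK4-KO and fell by 1.34 (adjusted p = 0.00399). *Il10* had 129 and 105 counts in WT and 45 and 114 in CD4/ALK4-KO and did not pass (-0.40, adjusted p = 0.448), nor did *Tgfb1* (0.26, adjusted p = 0.42). Relative to the CD3 chains none of the 10 was higher and 6 were lower, where 0.352% and 91% of all genes tested were, with a median of -0.97.

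The partners of GARP and neuropilin-1 had medians near that of all genes by TMM. Of 6 genes of latent TGF-β handling (median 0.077), *Nrros*, which tethers latent TGF-β on myeloid cells as GARP does on Tregs, had 572 and 589 counts in WT and 824 and 1361 in CD4/ALK4-KO and rose (1.07, adjusted p = 0.00134). *Ltbp1*, which fixes latent TGF-β in the matrix, fell by 1.35 (adjusted p = 7.05e-05), and *Itgb8*, the subunit of an activating integrin, did not pass (0.68, adjusted p = 0.0646). Of 10 ligands and co-receptors of neuropilin-1 (median -0.097), *Sema4a*, its ligand on Tregs, had 314 and 327 counts in WT and 710 and 949 in CD4/ALK4-KO and rose (1.54, adjusted p = 2.08e-05). *Sema3a* fell by 1.48 and *Nrp2*, the paralog of *Nrp1*, by 0.95 (adjusted p = 0.00489), while the plexin genes *Plxna1*, *Plxna2*, *Plxna3* and *Plxna4* did not pass, with log2 fold changes from -0.48 to 0.52. Without CD4/ALK4-KO replicate 2 the genes of latent TGF-β handling counted 2 higher and 2 lower, and without WT replicate 1 only 1 gene around neuropilin-1 was lower. On the CD3 scale all 6 and 9 of the 10 were lower, next to 91% of all genes tested.

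**Figure D5:**
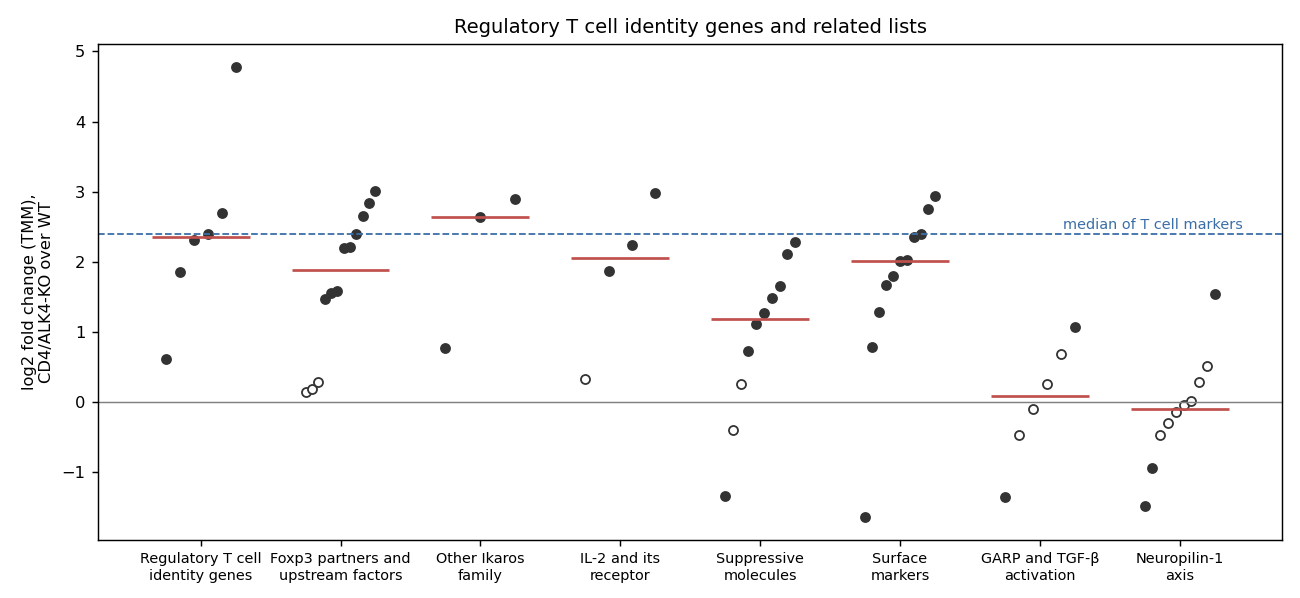
Log2 fold change by TMM (CD4/ALK4-KO over WT) of each gene in the lists of Treg and partner genes, 1 point per gene, filled where the adjusted p is under 0.05, with the list median as a red line and the median of the T cell markers (2.39) as a dashed line. The Ikaros, IL-2 axis, partner and surface lists lie mostly above 0, whereas the lists around GARP and neuropilin-1 are spread around 0.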

How the data were processed

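RNA-Seq libraries of lung CD4+ T cells (TruSeq RNA v2, which does not mark strand, 75 bp single-end reads) were quality-checked with FastQC, aligned to mm10 with HISAT2 and counted per gene symbol with HTSeq by the authors, who deposited raw counts without normalization and used DESeq2. These tools are named in the submitters' processing notes and the methods, and their versions, the annotation and the strand option are not given in the sources used here. The depth was 11823908 to 13943237 counts per library.

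The members and gene lists were chosen with earlier results of these data known. From the counts, edgeR 4.0.16 in R 4.3.3 was run on 2 scales: filterByExpr kept 13919 of 25239 genes, library sizes were either TMM-adjusted or the summed counts of *Cd3e*, *Cd3d* and *Cd3g*, and genotype alone was modelled in glmQLFit (robust) and tested with glmQLFTest, p-values being Benjamini-Hochberg adjusted over all genes tested. The counting error of the CD3 genes is not in the p-values. These measure the spread between these 4 libraries, with the spread of each gene moderated toward that of all genes tested. The confidence intervals of the fit use the same moderated spread. SE is the absolute log2 fold change over the square root of F. Intervals of count ratios are exact and cover counting error only.

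Replicates differed by more than sampling noise (chi-square per degree of freedom 16.0 and 28.7). On simulated data of 13715 genes, 200 of them were given a log2 fold change of 2 in either direction. By TMM 96% of these were recovered with 20 unchanged genes called, and on the CD3 scale 95.5% with 52 unchanged genes called. The simulation changed only these 200 genes and left the CD3 chains unchanged, unlike these data, so its rates do not carry over to them. Named genes were the members, the CD3 chains, *Cd4*, *Cd8a*, *Acvr1b*, every gene of the Treg and partner lists, the 2 most abundant markers of each cell type list, and the 5 genes nearest in profile to *Foxp3* and to *Ikzf2*, of which 1 is not reported here. The sex-linked genes and the neighbours of *Foxp3* were added after their values were seen. Gene locations and exon lengths are from GENCODE M21, and promoters from RefSeq. Alternatives were DESeq2 1.42.0 (size factors, Wald test), upper quartile scaling, other filters, the likelihood ratio test, a replicate block, single genes as the scale, and each library left out.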

Additional observations from a re-analysis of the deposited data

How the results depend on the processing

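By TMM, *Foxp3*, *Ikzf2*, *Ikzf4*, *Lrrc32* and *Gpr83* passed the test in every alternative in which they were tested, and *Nrp1* did not with the replicate block (0.62, adjusted p = 0.125) or without either WT library (range with a library left out 0.56 to 0.70). Same-numbered replicates did not deviate together (correlation of deviations -0.24). The labels do not say what the number means, and 2 libraries per genotype cannot show whether it marks a batch. With the replicate block 1768 genes were higher and 1444 lower, against 2422 and 2140. With the pairing crossed, chosen after seeing the data, 3118 were higher and 3037 lower. As each library was left out, genes higher by TMM numbered 1103 to 2923 and genes lower 754 to 2618. On the CD3 scale, *Cd3e* alone turned *Foxp3* (-0.20), *Ikzf2* (-0.65) and *Ikzf4* (-0.50), gave *Lrrc32* a call (-1.08) and left 4 genes higher, *Cd4* turned *Ikzf2* (-0.32) and *Ikzf4* (-0.20) and left 13 higher, and *Cd3d* alone gave 97 higher, against 49. With a library left out these were 11 to 107, and the log2 fold changes ran from 0.013 to 1.29 for *Foxp3*, -0.069 to 0.41 for *Ikzf2*, -0.042 to 0.70 for *Ikzf4* and -0.83 to 0.17 for *Lrrc32*. The log2 ratios of counts per 1000 counts of the CD3 chains ran from -0.069 to 0.41 for *Ikzf2*, -0.040 to 0.71 for *Ikzf4* and -0.83 to 0.17 for *Lrrc32*. Of 131 alternative values for the members that carry a test, 118 kept direction and side of the threshold, with a genotype left at 1 library assumed to vary like the other genotype, and the causes of the others were not tested beyond what leaving out a library shows. With 2 libraries per genotype and the low counts of *Foxp3*, *Ikzf4* and *Lrrc32*, differences inside the intervals given were not detectable relative to the CD3 chains.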

Other observations

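The B cell and NK cell markers moved with the Treg genes. The 6 B cell markers summed to 62.0 and 52.6 CPM in WT and 174 and 338 CPM in CD4/ALK4-KO, and all 6 were higher by TMM with a median log2 fold change of 2.47, next to 2.35 for the Treg genes. Of the NK cell markers, *Klra4* did not pass the filter and the other 4 were higher (median 1.96), with sums of 27.6 and 44.6 CPM in WT and 133 and 126 CPM in CD4/ALK4-KO. Epithelial markers summed to 865 and 869 CPM in WT and to 420 and 565 CPM in CD4/ALK4-KO, with 4 of 7 lower and 2 higher. Neutrophil markers overlapped between the genotypes, at 877 and 1368 CPM in WT and 1373 and 891 CPM in CD4/ALK4-KO, with 2 of 6 higher. The part of these cells in the values of the Treg genes was not tested.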
